A study of Mus musculus with 14 samples.

Results

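Mucosal immune cell marker genes were followed through a meal in the mouse duodenum. The 35 genes come from a list of symbols: 15 of T cells and intraepithelial lymphocytes, Ptprc for all leukocytes, 6 of the B lineage, 5 of MHC class II and 8 of myeloid cells. Each was looked up in the platform annotation by its current or older name, among probe sets that name 1 gene, and where several were found the brightest over the 14 arrays was used. Of the 35 genes, 34 were measured among 18194 genes with such a probe set. Lck was not analysed here. Igj is the older name of Jchain.

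The mice were male C57BL6, 12 wk old when bought, and all of them ate the low-fat (LF) diet during acclimation and were then fasted for 12 h. The mice of 1 group were killed fasted (Fasting). The others ate freely a LF meal with 10% of calories from fat, or a high-fat (HF) meal with 60%, and were killed 30 min, 1 h or 3 h after the meal began (LF30min, LF1h, LF3h, HF30min, HF1h and HF3h). Duodenal mucosa was scraped off and RNA of the 20 mice of a group was pooled, so that each of the 7 groups is 1 pool read on 2 technical arrays. Errors and p-values therefore describe the arrays and not the mice. In such bulk RNA, fewer cells of a type and less RNA per cell cannot be told apart.

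The small intestine holds one of the densest immune populations of the body. Intraepithelial lymphocytes sit between the enterocytes, mostly as CD8 T cells that store granzymes and hold on to E-cadherin through the αE integrin. The lamina propria below holds plasma cells that secrete IgA joined by the J chain, CD4 T cells, macrophages and dendritic cells, while B cells gather in follicles. MHC class II molecules show peptides to CD4 T cells and are made by B cells, dendritic cells and macrophages, and in the small intestine by enterocytes too. Their genes share a promoter element in which the X box is bound by the RFX complex and the Y box by NF-Y, and CIITA, which docks on both, switches the genes on.

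That shared element is shown for H2-Aa and H2-Eb1, since class II genes had the smallest median range between pools of the 4 groups. Among immune marker genes with a promoter in the RefSeq table (build GRCm38.p6), only these 2 held both strings marked below. Other spellings of the boxes were not searched. The stretches are the 150 bases directly before the annotated transcription start, printed in the direction of transcription. Capitals mark the X-box core GCAACT and the Y box CTGATTGG, whose last letters are an inverted CCAAT box.
H2-Aa, minus strand, chr17:34287824-34287973: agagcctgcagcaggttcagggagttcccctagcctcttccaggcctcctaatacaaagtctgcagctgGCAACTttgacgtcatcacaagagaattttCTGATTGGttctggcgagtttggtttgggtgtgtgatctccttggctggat
H2-Eb1, plus strand, chr17:34305717-34305866: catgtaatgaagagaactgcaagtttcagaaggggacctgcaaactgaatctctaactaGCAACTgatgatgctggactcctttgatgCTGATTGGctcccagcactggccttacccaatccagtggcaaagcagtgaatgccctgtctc
The first letters of the X-box core and the Y box lay 30 bases apart in H2-Aa and 29 bases apart in H2-Eb1. Of 32851 promoters, read on both strands over the 250 bases before the start, 3.83% held the Y box and 9.01% the X-box core. The core followed by the Y box within 40 bases was found in 9 of them, or 0.0274%. Among the 19 immune marker genes with a promoter in the table, only H2-Aa and H2-Eb1 held that pair. These are matches of letters, not measured binding.

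Signals are the authors' log2 values, so that a difference of 1 is a 2-fold change, and levels are compared only within a gene. A gene was called when limma's adjusted p was under 0.05. The pool mean was at least 6 in some pool for 25 genes. The other 9 stayed under 6 in all pools, where arrays of this kind tell signal and background apart poorly: Cd8b1, Cd2, Thy1, Cd79b, Ms4a1, Cxcr5, Ciita, Cx3cr1 and Cd68. The 14-array mean was at least 6 for 11 of 14 T cell genes and 3 of 6 B-lineage genes. It was so for 4 of 5 class II genes and 6 of 8 myeloid genes. The brightest gene of each group, picked for its brightness, had a mean of 10.98 (Gzma), 12.66 (Igj), 12.56 (H2-Aa) and 9.98 (Csf1r). Ptprc (CD45, the phosphatase of all leukocytes) had a mean of 9.40. Across probe sets, technical arrays of the same pool had correlations of 0.9958 to 0.9971. Standard errors of the differences between pools ran from 0.078 to 0.17 for these genes.

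The immune markers varied little between the pools. The range from the lowest to the highest pool mean had a median of 0.31 log2 units over the 34 genes, against 0.29 over all genes. It was widest for B-lineage genes, with a median of 0.41, then 0.39 for myeloid genes, 0.31 for T cell genes and 0.13 for MHC class II genes. No gene spanned 2-fold between any 2 pools, and 3 spanned 1.5-fold (Ms4a1, Pou2af1 and Ciita). The F test over the 7 groups called 5 of 34 genes: Gzma, Ms4a1, Pou2af1, C1qa and Lyz2. It called 9.76% of all genes and 18.1% of genes with a mean of at least 6, so in this fit the share of immune markers was near the background. In other fits the share of immune markers was above the background. When the prior variance was allowed to follow the signal level, the F test called 16 of 34 immune markers and 21.1% of all genes. With probe sets under a mean of 6 left out, it called 15 of 25 immune markers and 43.5% of the genes left.

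**Figure D1:**
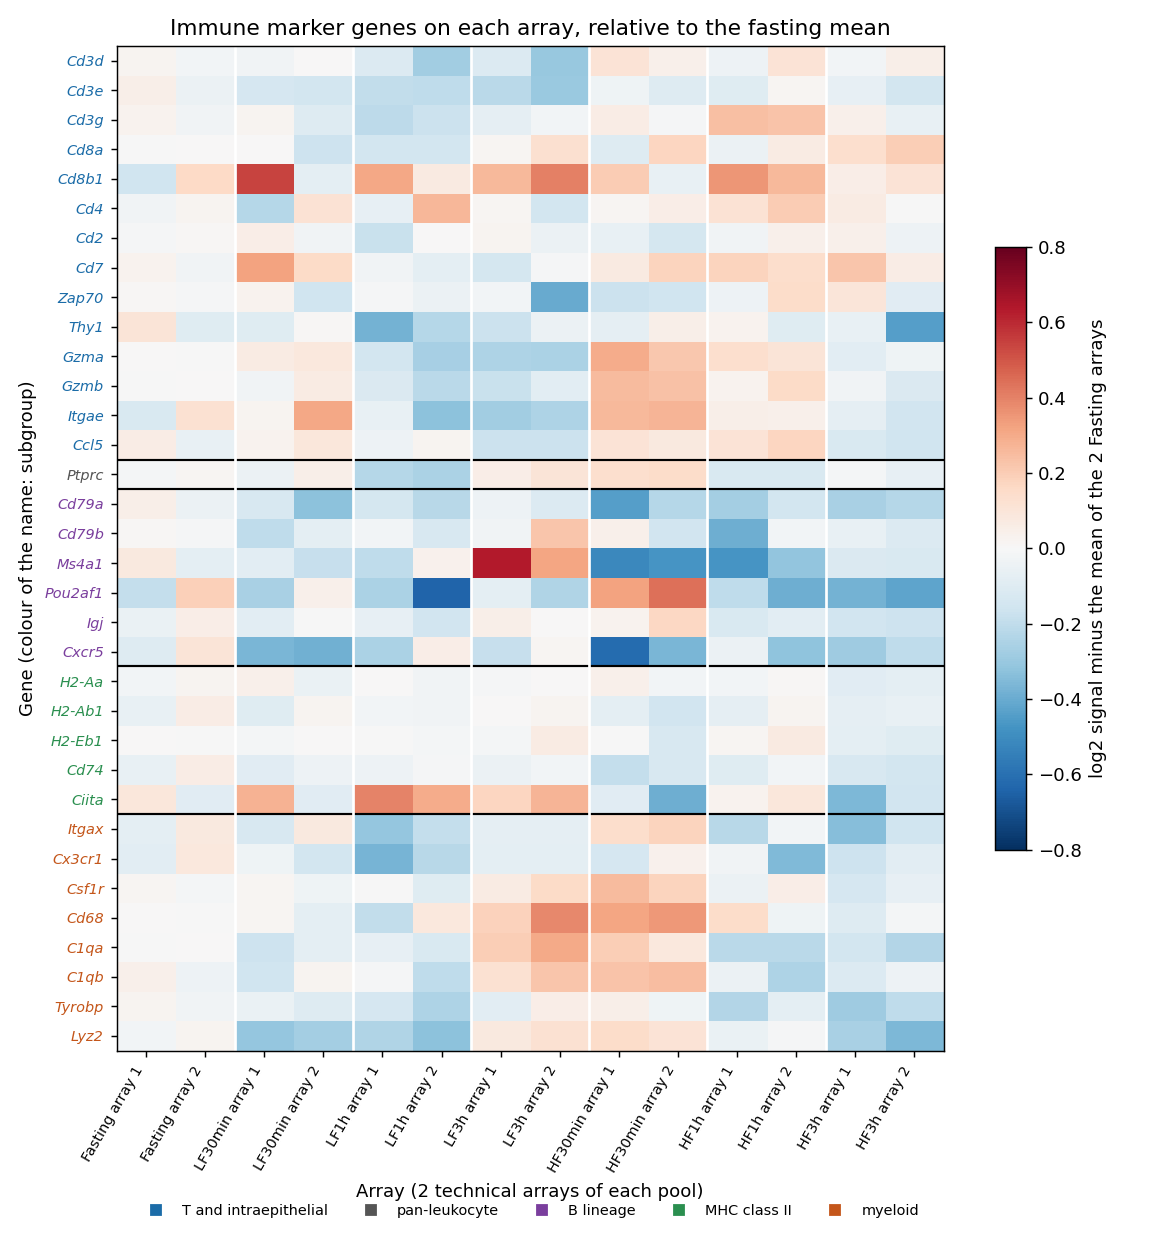
Log2 signal of the 34 genes (rows, grouped by subgroup) on the 14 arrays (columns), each minus the mean of the gene's 2 Fasting arrays. MHC class II genes other than Ciita are white or pale throughout, and Gzma, Gzmb and Itgae are red at HF30min. The C1q genes are pale red at LF3h and HF30min, and Lyz2 is blue at LF30min, LF1h and HF3h.

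Against the fasting pool, 2 of 204 tests of immune markers were called. Ms4a1 was higher at LF3h, where 5.41% of all genes were called in either direction, and Lyz2 was lower at HF3h, where 6.67% were called. All 6 comparisons share the 2 Fasting arrays. At LF30min, LF1h, HF30min and HF1h limma called 0 immune markers, and 0.401%, 1.54%, 1.12% and 1.01% of all genes. At an unadjusted p under 0.05 these 4 comparisons held 4, 10, 10 and 3 immune markers. With the prior variance following the signal level limma called 1, 3, 6 and 0 of them, and 1.08%, 3.38%, 4.24% and 3% of all genes.

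Between the meals, 4 of 102 tests were called. Lyz2 was higher at HF30min than at LF30min, with 0.55% of all genes called. At 1 h no immune marker and 0.225% of all genes were called, although 8 immune markers had an unadjusted p under 0.05 and 3 passed with the variance following the signal (Cd3g, Gzma and Gzmb), where 1.32% of all genes did. At 3 h Ms4a1, C1qa and Lyz2 were lower in the HF pool, with 2.2% of all genes called in either direction and 1.01% called lower. Among genes with a mean of at least 6, 2.03% were called lower.

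**Figure D2:**
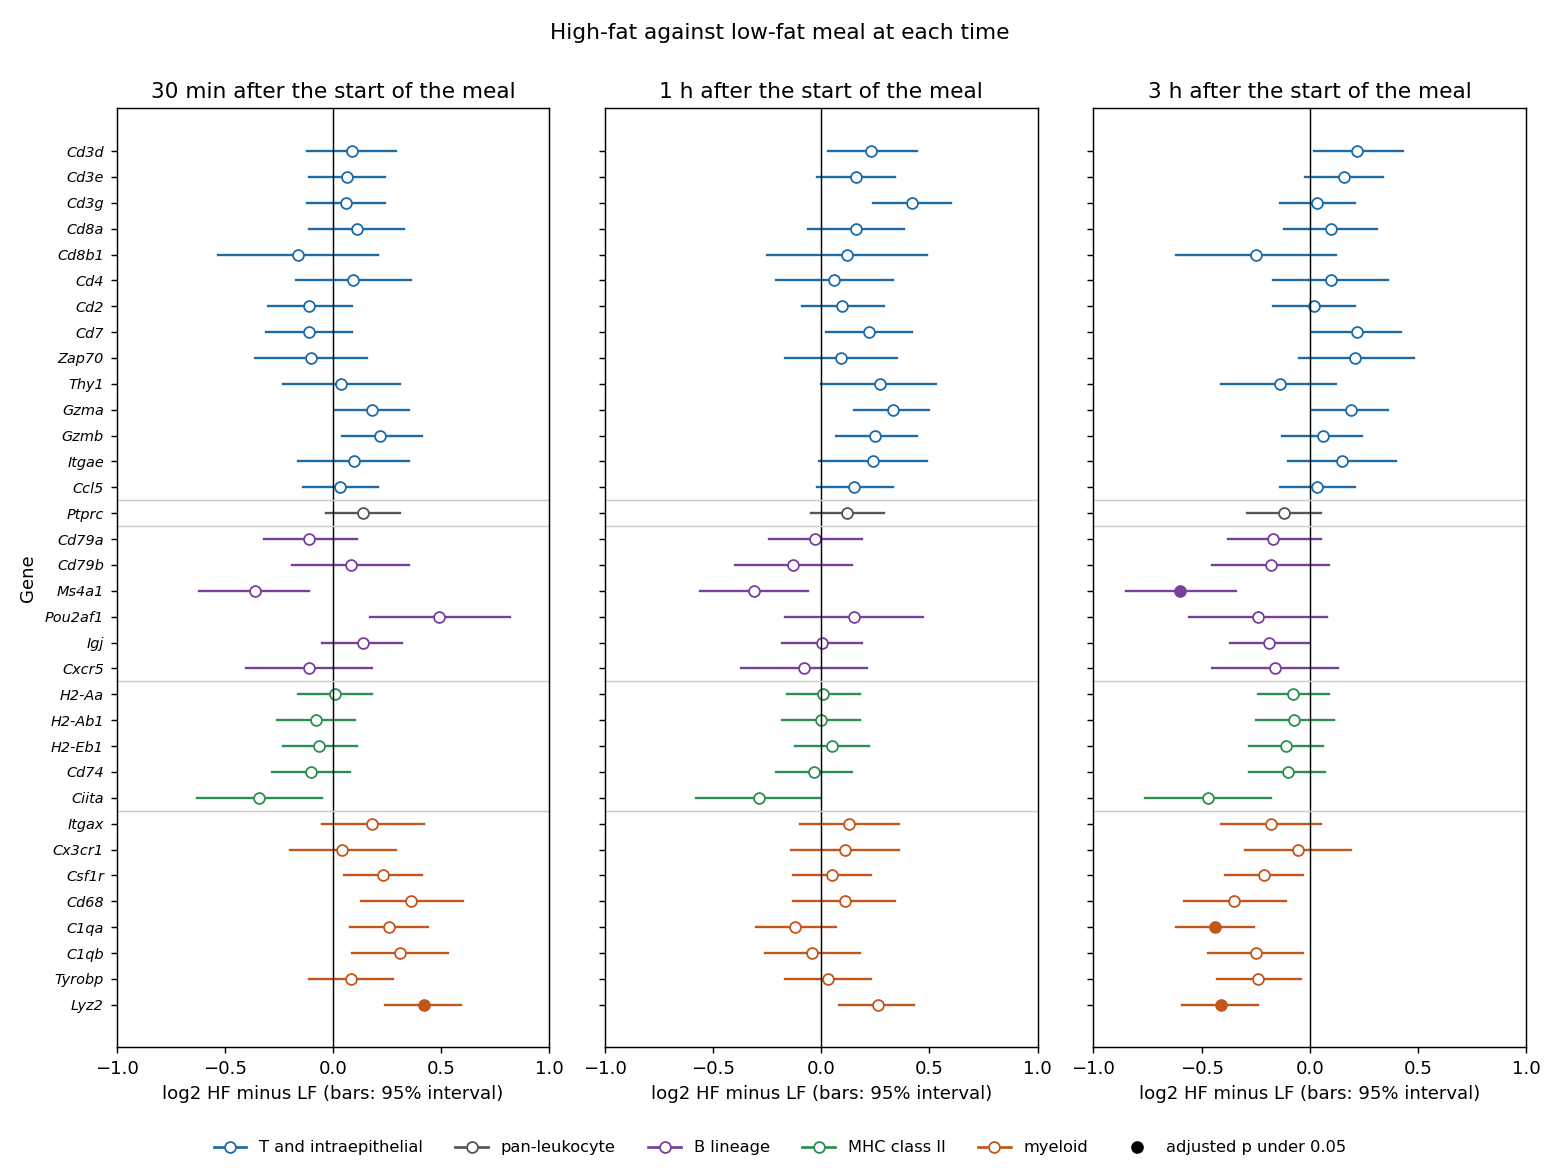
Difference between the HF and the LF pool for each gene at 30 min, 1 h and 3 h, in log2 units, with its 95% interval from limma; filled points passed the test. T cell genes lie right of 0 at 1 h in 14 of 14 cases, and myeloid genes lie right of 0 at 30 min and left of 0 at 3 h in 8 of 8 cases.

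T cell and intraepithelial genes were led by granzyme A, a protease stored in the granules of cytotoxic lymphocytes. Gzma read 10.99 and 10.98 on the Fasting arrays, 11.05 and 11.07 at LF30min, 10.84 and 10.72 at LF1h, and 10.74 and 10.73 at LF3h. After the HF meal it read 11.28 and 11.20 at HF30min, 11.12 and 11.09 at HF1h, and 10.90 and 10.95 at HF3h. After each meal it was highest at 30 min, and the HF arrays lay above the LF arrays of the same time at each of the 3 times. Between neighbours in the order of the 7 pool means, only LF3h and LF1h, the lowest, overlapped in their arrays.

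The adjusted p of Gzma over the 7 groups was 0.0076. Single comparisons did not pass: the difference between HF1h and LF1h was 0.33 (SE 0.080, adjusted p = 0.16), that between HF30min and Fasting 0.26 (adjusted p = 0.17) and that between LF3h and Fasting -0.24 (adjusted p = 0.11). With the variance following the signal, Gzma was called in 6 of the 9 comparisons, these 3 among them, with adjusted p-values of 0.00013, 0.00083 and 0.00074. Gzma was called over the 7 groups in each of the 22 alternatives.

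Gzmb, its partner granzyme, had its highest pool mean at HF30min too (9.71) and its lowest at LF1h (9.30), with an adjusted p of 0.061 over the 7 groups. Itgae, the αE integrin chain CD103 of intraepithelial lymphocytes, ran from 7.28 at LF3h to 7.81 at HF30min (adjusted p = 0.055). A dimmer probe set of Itgae was called against fasting at LF3h (-0.40) and at HF3h (-0.38), where the brighter one was not. It lacked the rise at HF30min, with a difference of 0.01 from Fasting against 0.27 on the brighter one. Ccl5, a chemokine of activated T cells, ran from 9.63 at LF3h to 9.94 at HF1h (adjusted p = 0.10).

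The invariant chains of the T cell receptor complex did not pass either. Cd3g had the largest meal difference of the T cell genes: it read 6.24 and 6.28 at LF1h and 6.69 and 6.68 at HF1h, a difference of 0.42 (SE 0.083, 95% interval 0.24 to 0.60, adjusted p = 0.073). The 2 arrays of each pool were close and the pools did not overlap. Cd3d and Cd3e had pool means from 6.52 to 6.80 and from 7.50 to 7.76, each lowest at LF3h. The co-receptors Cd8a and Cd4 ranged by 0.31 and 0.23, and the kinase Zap70, which relays the receptor's signal, by 0.27. Cd8a probe sets disagreed, without a call. At HF3h the brightest was 0.17 above Fasting, and those with means of 6.69 and 6.42 gave 0.15 and -0.34. Between HF3h and LF3h these 3 gave 0.096, 0.19 and -0.07. Cd7, a surface protein of T cells, ranged by 0.31. Cd8b1, Cd2 and Thy1 were near background.

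As a list, T cell genes had a median difference of 0.19 between HF1h and LF1h, positive in 14 of 14 genes, while 53.7% of all genes and 43.4% of genes with a mean of at least 6 were higher in HF1h. None of the 14 was called (5 at an unadjusted p under 0.05). At 3 h 12 of 14 lay higher in the HF pool, with a median of 0.10, while 51.2% of all genes and 33.5% of genes with a mean of at least 6 did. The exceptions, Cd8b1 and Thy1, were near background. These genes were read on the same 4 arrays, so their number is not a number of independent observations. Ptprc did not share that pattern at 3 h: it read 9.48 and 9.53 at LF3h and 9.41 and 9.36 at HF3h, and was lowest at LF1h with 9.20 and 9.17 (adjusted p = 0.062 over the 7 groups).

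**Figure D3:**
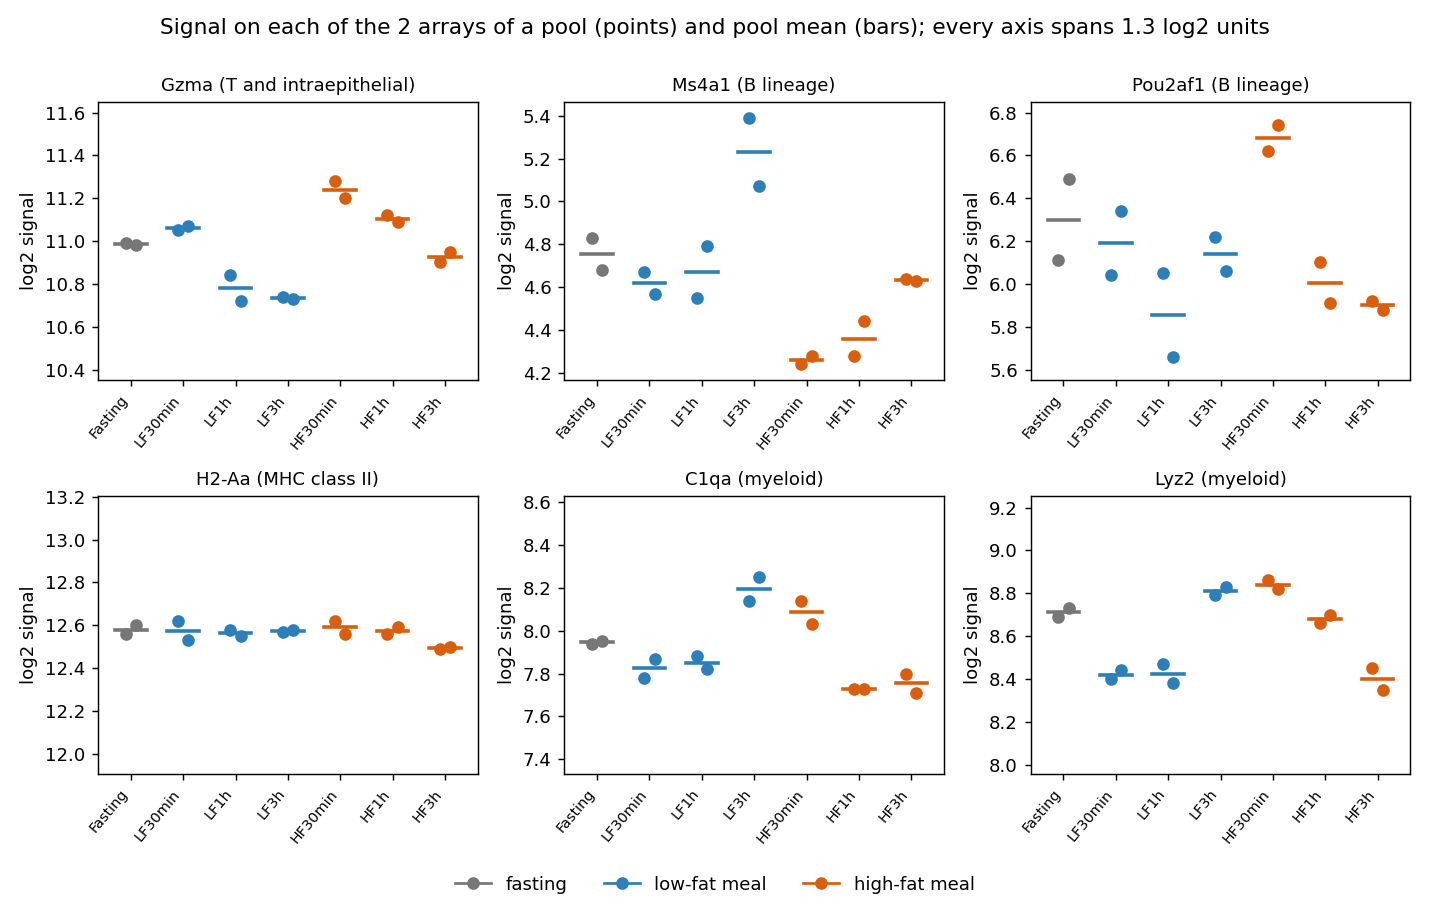
Log2 signal on each of the 2 arrays of a pool (points) and the pool mean (bars) for 6 genes; each vertical axis spans the same 1.3 log2 units. Gzma lies higher after the HF than after the LF meal at each time, Ms4a1 and C1qa peak at LF3h, Lyz2 is high at LF3h and HF30min, and H2-Aa hardly varies.

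B-lineage genes differed in where they were highest. Ms4a1 (CD20, a membrane protein of mature B cells) read 4.83 and 4.68 on the Fasting arrays, 4.67 and 4.57 at LF30min, 4.55 and 4.79 at LF1h, and 5.39 and 5.07 at LF3h. After the HF meal it read 4.24 and 4.28 at HF30min, 4.28 and 4.44 at HF1h, and 4.64 and 4.63 at HF3h. Both LF3h arrays lay above all others, and the HF30min and HF1h arrays below all others. All these signals were under 6.

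Ms4a1 had the widest range of the 34 genes, 0.97 log2 units between HF30min and LF3h (adjusted p = 0.002 over the 7 groups). It was 0.47 higher at LF3h than in Fasting (SE 0.12, adjusted p = 0.035) and 0.60 lower at HF3h than at LF3h (SE 0.12, 95% interval of the HF minus LF difference -0.85 to -0.34, adjusted p = 0.021). Without the first LF3h array these differences were 0.31 (adjusted p = 0.26) and -0.43 (adjusted p = 0.15). Without the first or the second HF3h array the difference between the meals was not called either (adjusted p = 0.12 and 0.11). The call against fasting was also lost without either Fasting array (0.55 with an adjusted p of 0.095, and 0.40 with 0.21) or either HF30min array (adjusted p = 0.052). Its other probe set, with a mean of 2.98, was not called.

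Pou2af1 (OCA-B), a coactivator of immunoglobulin genes in B and plasma cells, moved differently. Its arrays read 6.11 and 6.49 in Fasting, 6.04 and 6.34 at LF30min, 6.05 and 5.66 at LF1h and 6.22 and 6.06 at LF3h. They read 6.62 and 6.74 at HF30min, 6.10 and 5.91 at HF1h and 5.92 and 5.88 at HF3h. The HF30min pool lay above the other 6, which overlapped one another in order. The adjusted p over the 7 groups was 0.025, and rose to 0.086 or 0.14 without either HF30min array and to 0.055 or 0.057 without either HF3h array. The difference of 0.49 between HF30min and LF30min did not pass (adjusted p = 0.26).

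Igj, the joining chain of secreted IgA, stayed between pool means of 12.54 and 12.80 (adjusted p = 0.32). Its difference of -0.19 between HF3h and LF3h was called when the variance followed the signal (adjusted p = 0.011) and not otherwise (adjusted p = 0.32). Cd79a, a signalling chain of the B cell receptor, ran from 6.47 at HF30min to 6.80 in Fasting. Its partner Cd79b and the follicle homing receptor Cxcr5 were near background. At 3 h 6 of 6 B-lineage genes lay lower in the HF than in the LF pool, with a median of -0.18, and 1 was called. There 51.2% of all genes and 33.5% of genes with a mean of at least 6 were higher in the HF pool, so that most genes of that brightness were lower too, with a median of -0.06.

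MHC class II genes had the smallest median range of the 4 groups, as a description without a test. H2-Aa, the chain of the I-A molecule whose promoter is printed above, read 12.56 and 12.60 in Fasting, from 12.53 to 12.62 on the 4 LF30min and LF1h arrays, 12.57 and 12.58 at LF3h, from 12.56 to 12.62 on the 4 HF30min and HF1h arrays, and 12.49 and 12.50 at HF3h. The HF3h arrays were the lowest, and the whole range of pool means was 0.09. H2-Ab1 ranged by 0.12, H2-Eb1 by 0.13 and Cd74, the invariant chain that guards the peptide groove, by 0.16. The 95% intervals of the HF3h minus LF3h difference were -0.24 to 0.09 for H2-Aa, -0.25 to 0.11 for H2-Ab1, -0.28 to 0.06 for H2-Eb1 and -0.28 to 0.07 for Cd74. Limma called 0 of 5 class II genes over the 7 groups and 1 had an unadjusted p under 0.05; with the variance following the signal, Cd74 and Ciita were called. Dimmer probe sets of the I-A genes varied more than the brightest ones, without a call: 1 of H2-Aa, with a mean of 10.78, was 0.31 lower at HF30min than in Fasting, 1 with a mean of 7.58 was 0.24 higher at HF1h, and 1 of H2-Ab1, with a mean of 11.3, was 0.23 lower at HF30min.

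Ciita, the class II coactivator, had the widest range of this group. It read 5.04 and 4.86 in Fasting, 5.23 and 4.86 at LF30min, 5.35 and 5.25 at LF1h, 5.12 and 5.22 at LF3h, 4.86 and 4.56 at HF30min, 4.98 and 5.04 at HF1h, and 4.59 and 4.80 at HF3h. At 1 h and 3 h the LF arrays lay above the HF arrays of the same time, and all signals were near background. The difference between HF3h and LF3h was -0.47 (SE 0.13, adjusted p = 0.10) and the adjusted p over the 7 groups was 0.052. Its other probe sets, with means of 4.65 and 4.38, gave -0.17 and 0.16. The 5 class II genes lay lower in HF3h than in LF3h in 5 of 5 cases, with a median of -0.10 and 0 called (1 at an unadjusted p under 0.05), where 33.5% of genes with a mean of at least 6 and 51.2% of all genes were higher in HF3h.

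Of the 4 calls between the meals, 3 were in myeloid genes. Lyz2, the lysozyme of macrophages, read 8.69 and 8.73 in Fasting, 8.40 and 8.44 at LF30min, 8.47 and 8.38 at LF1h and 8.79 and 8.83 at LF3h. After the HF meal it read 8.86 and 8.82 at HF30min, 8.66 and 8.70 at HF1h and 8.45 and 8.35 at HF3h. It was thus low early and high late after the LF meal, and high early and low late after the HF meal. The LF30min, LF1h and HF3h arrays formed the low end and lay below all Fasting arrays.

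Lyz2 was 0.42 higher at HF30min than at LF30min (SE 0.081, adjusted p = 0.041), 0.41 lower at HF3h than at LF3h (adjusted p = 0.02) and 0.31 lower at HF3h than in Fasting (adjusted p = 0.041). The change of the meal difference from 30 min to 3 h, a contrast chosen after the values were seen, was -0.83 (SE 0.11, adjusted p = 0.0021), and it was called in all 23 alternatives. The call at 30 min was lost whichever of the 14 arrays was left out, with differences from 0.40 to 0.43 and adjusted p-values from 0.051 to 0.27. The call against fasting was lost without either Fasting, LF30min, LF3h, HF30min or HF3h array, with differences from -0.36 to -0.25 and adjusted p-values from 0.052 to 0.24. The call at HF3h against LF3h was lost without any of its 4 arrays, with differences from -0.47 to -0.36 and adjusted p-values from 0.068 to 0.18.

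Lyz1, the closely similar lysozyme gene of Paneth cells, had differences of the same sign in the 3 comparisons in which Lyz2 was called, and its sequence could share signal with Lyz2. On its 2 brighter probe sets the difference between HF30min and LF30min was 0.53 and 0.62, that between HF3h and LF3h -0.36 and -0.31, and that between HF3h and Fasting -0.48 and -0.46. At LF3h the signs differed: these probe sets were 0.12 and 0.15 lower than in Fasting, and Lyz2 was 0.11 higher without a call. The part of Lyz1 in the Lyz2 signal was not tested.

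C1qa, a chain of the complement component that tissue macrophages make, read 7.94 and 7.95 in Fasting, 7.78 and 7.87 at LF30min, 7.88 and 7.82 at LF1h and 8.14 and 8.25 at LF3h. After the HF meal it read 8.14 and 8.03 at HF30min, 7.73 and 7.73 at HF1h and 7.80 and 7.71 at HF3h. The LF3h and HF30min arrays were the highest and did not overlap the rest. C1qa was 0.44 lower at HF3h than at LF3h (SE 0.084, 95% interval -0.62 to -0.26, adjusted p = 0.018). Without any of these 4 arrays the adjusted p was 0.054 to 0.20, with differences from -0.49 to -0.38. Over the 7 groups its adjusted p was 0.015, and 0.077 without the second LF3h array.

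The change of the C1qa meal difference from 30 min to 3 h was -0.69 (SE 0.12, adjusted p = 0.015). Of the 34 immune markers only C1qa and Lyz2 were called in this contrast, which called 0.879% of all genes. The call of C1qa was lost without the first LF30min, the second LF3h, the first HF30min or the second HF3h array, with adjusted p-values from 0.077 to 0.097.

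C1qb, its partner chain, had the same highest pools: 8.11 at HF30min and 8.04 at LF3h, against 7.72 at HF1h, the lowest (adjusted p = 0.096 over the 7 groups). A second probe set of C1qb was called at HF30min, 0.50 above Fasting and 0.59 above LF30min, where the brighter one gave 0.24 and 0.31 without passing. Csf1r, the receptor that keeps macrophages alive, ran from 9.86 at HF3h to 10.17 at HF30min (adjusted p = 0.18). Its meal difference was 0.23 at 30 min and -0.21 at 3 h, with adjusted p-values of 0.031 and 0.032 where the variance followed the signal and no call otherwise. Dimmer probe sets of Csf1r, with means of 7.61 and 7.41, gave 0.11 and 0.06 at 30 min. At 3 h they gave -0.29 and -0.07, without a call. Itgax (CD11c), Tyrobp, a signalling adaptor of myeloid cells, and Cd68 also had their highest pool at HF30min and their lowest at HF3h; Cx3cr1, the fractalkine receptor of gut macrophages, was near background with a range of 0.30.

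The myeloid list as a whole lay higher in the HF than in the LF pool at 30 min in 8 of 8 genes (median 0.24), and lower at 3 h in 8 of 8 (median -0.24). Over all genes, 50.7% were higher in the HF pool at 30 min and 51.2% at 3 h, and among genes with a mean of at least 6, 53.6% and 33.5%, with a median of -0.06 at 3 h. Genes of endothelium and stroma had the same highest pools: their mean offset from each gene's own average was 0.15 at HF30min and 0.11 at LF3h, the highest of the 7 pools, and the myeloid list had 0.19 and 0.14 there. Both lists were lowest at LF1h and HF3h, where the offset of the stromal list was -0.10 and -0.07 and that of the myeloid list -0.12 and -0.13. In the stromal list 11 of 13 genes were higher at HF30min than at LF30min and 11 of 13 lower at HF3h than at LF3h, and the collagen Col3a1 was called there (-0.45). Epithelial genes had offsets from -0.05 to 0.05. Other lists of cells below the epithelium differed in these pools. At HF30min and LF3h the offsets were -0.095 and 0.04 for plasma cell genes, and -0.16 and 0.11 for other B cell and follicle genes. They were 0.12 and -0.11 for smooth muscle genes, and 0.09 and 0.04 for other macrophage and dendritic genes. The part of differing shares of lamina propria in the myeloid values was not tested.

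**Figure D4:**
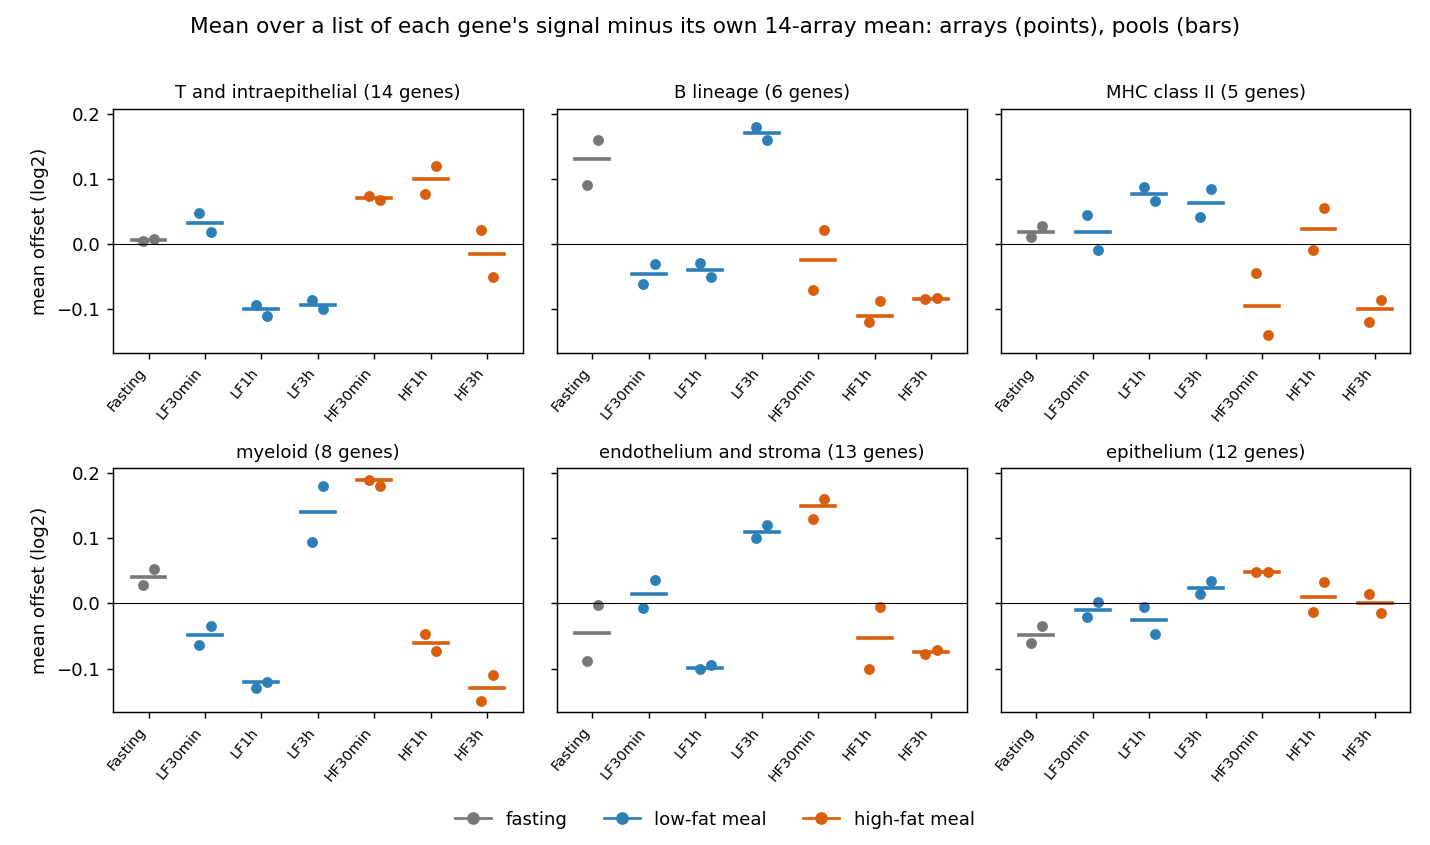
Mean over each list of the log2 signal of a gene minus that gene's mean over the 14 arrays, for each array (points) and pool (bars). Myeloid genes and genes of endothelium and stroma are both highest at HF30min and LF3h, T cell genes are lowest at LF1h (-0.10) and LF3h (-0.09), and epithelial genes stay within 0.05 of 0 in every pool mean.

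Further genes of the same pathways, by lists written from general knowledge, were read against the same background of 9.76% of all genes, and 18.1% of genes with a mean of at least 6, called over the 7 groups. Other T cell receptor signalling genes had 0 of 15 called by limma (6 at an unadjusted p under 0.05), and their median difference between HF1h and LF1h was 0.19, as in the T cell list. At 3 h their median was 0.04, against 0.10 in the T cell list. There 9 of 15 lay higher in the HF pool, while 51.2% of all genes and 33.5% of genes with a mean of at least 6 did. Other γδ, NK and cytotoxic genes had 2 of 16, with Klrd1, the CD94 chain of NK receptors, 0.57 lower at LF1h than in Fasting (adjusted p = 0.026). Other B cell and follicle genes had 4 of 16, led by Bcl6, the repressor that programs germinal centre cells, which was 0.81 lower at LF1h and 0.60 lower at HF1h than in Fasting (adjusted p = 0.00029 and 0.0063).

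Plasma cell genes had 3 of 10. Mzb1, which helps assemble antibodies, was 0.44 lower at HF3h than at LF3h (adjusted p = 0.017), and Fkbp11, a folding enzyme of secretory cells, was 0.66 higher (adjusted p = 0.013). Fkbp11 was also 0.54 higher at LF1h, and 0.72 higher at HF3h, than in Fasting. Derl3, a gene of endoplasmic reticulum degradation, was 0.32 higher at HF3h than in Fasting, and Prdm1, the plasma cell regulator, 0.40 lower at LF1h. Genes of this list thus went both ways.

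Other genes of the MHC class II pathway had 3 of 13 called. Rfx5, a subunit of the RFX complex that binds the X box, was lower than in Fasting at LF3h (-0.37), HF1h (-0.52) and HF3h (-0.55, SE 0.098, adjusted p = 0.0037). H2-Ob, a chain of the peptide-loading modulator H2-O, was 0.50 lower at HF3h than at LF3h, near background. In the MHC class I pathway 2 of 12 were called: the peptide transporter Tap1 was 0.40 lower at LF3h and 0.41 lower at HF3h than in Fasting, and the immunoproteasome subunit Psmb9 0.38 lower at HF3h. Interferon gamma response genes had 4 of 14 called, and the GTPases Iigp1 and Irgm2 were 0.51 and 0.43 lower at HF3h than at LF3h (adjusted p = 0.029 and 0.037). Gbp2 was 0.34 lower at HF3h than in Fasting.

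Homing chemokines and cytokines had 4 of 16 called. Il15, the cytokine that sustains intraepithelial lymphocytes, was 0.44 lower at LF3h and 0.61 lower at HF3h than in Fasting (adjusted p = 0.029 and 0.0033). Ccl28, which draws IgA plasma cells to mucosae, was 0.62 lower at HF3h (adjusted p = 0.00082), and Ccl20 0.45 lower, while Cx3cl1, the ligand of Cx3cr1, was 0.43 higher (adjusted p = 0.0072). Other macrophage and dendritic genes had 1 of 17 called over the 7 groups, Mrc1, the mannose receptor (adjusted p = 0.033). Between HF3h and LF3h 14 of 17 were lower in the HF pool, with a median of -0.09. There 51.2% of all genes and 33.5% of genes with a mean of at least 6 were higher in HF3h, the latter with a median of -0.06. The only call was of Zbtb46, a dendritic cell factor, which was 0.41 higher (adjusted p = 0.049). At 30 min 12 of 17 were higher in the HF pool, with a median of 0.08 and 0 called. Of all genes 50.7% were higher there, and 53.6% of genes with a mean of at least 6. Granulocyte and mast cell genes had 0 of 17 called by limma over the 7 groups (1 at an unadjusted p under 0.05), and all had means under 6. Among them Mpo, the peroxidase of neutrophils, was 0.52 lower at LF3h than in Fasting and 0.55 higher at HF3h than at LF3h (adjusted p = 0.031 and 0.045), near background.

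Genes of other cell types were read for comparison. All 6 pancreatic acinar genes and all 7 genes of stomach and Brunner glands were called over the 7 groups, with mean offsets from -1.10 to 0.68 and from -1.20 to 1.60. Smooth muscle had 4 of 10, adipocytes 2 of 6, epithelium 4 of 12, endothelium and stroma 2 of 13, and erythrocytes 0 of 3 by limma (1 at an unadjusted p under 0.05). The acinar offset was positive both at LF1h (0.68) and at HF1h (0.51), where the T cell list had -0.10 and 0.10. There the myeloid list had -0.12 and -0.06. At HF3h, HF30min and LF3h the acinar offsets were 0.62, -1.1 and -0.40, and those of the myeloid list -0.13, 0.19 and 0.14. In Fasting and LF30min they were -0.13 and -0.23 for acinar genes, and 0.04 and -0.05 for myeloid genes. The part of pancreatic tissue in the immune values was not tested. As a sign of RNA quality, the signal of the 3' probe set less that of the 5' probe set was read for beta-actin and Gapdh. LF3h had the smallest values, 0.398 for beta-actin and -0.033 for Gapdh, while the rest lay at 0.43 to 0.525 and 0.015 to 0.082. The part of RNA quality in the LF3h values was not tested.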

How the data were processed

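RNA of duodenal mucosa, pooled from 20 mice a group, was hybridised to Affymetrix mouse GeneChip arrays, with 2 technical arrays for each of 7 pools. The deposited table holds the authors' log2 values after RMA (background subtraction, normalization and summary of each probe set), which keeps no reads and compresses small differences of dim genes; the log base is that of the method. Of 45101 probe sets, 64 controls were left out and 45037 were tested. The platform annotation names 1 gene for 34945 probe sets (18194 genes). A mean per pool was fitted to all 14 arrays with limma 3.58.1 in R 4.3.3 (7 residual and 6.4 prior degrees of freedom), without a replicate block. Each fed pool was compared with Fasting and HF with LF at each time, with an F test over the 7 groups, and p-values were adjusted by Benjamini-Hochberg over all 45037 probe sets of a comparison. The number of arrays limits the precision. Differences are on the log2 scale; intervals are 95%.

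The 2 arrays of a pool are not matched by number: over 21 pairs of pools the correlation of the difference between array 1 and array 2 was -0.187 to 0.151, above 0.1 in 2. The immune genes, the 17 further lists and the contrast between times were chosen with earlier results of these data known. Values were described for genes called in any comparison, the genes called by the F test, Ptprc, the gene of each subgroup with the highest mean and, from the further lists, up to 3 called genes with the largest difference; the other immune genes were given by range. Beyond these, genes with a call only in some settings (Cd3g, Ciita and others) were named after their values were seen. Alternatives changed the scaling, the filter on dim probe sets, the variance model, the probe sets used, the threshold and the arrays left out. The scripts were tested on simulated data. Plots were made in Python 3.11.15 (matplotlib 3.10.9).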

Additional observations from a re-analysis of the deposited data

Results flagged for a closer look

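These results differed between the meals, or between times in the size of the meal difference, by the test of that difference. Lyz2 was 0.42 log2 units higher at HF30min than at LF30min. At 3 h the HF pool was lower than the LF pool in Ms4a1 (-0.60), C1qa (-0.44) and Lyz2 (-0.41). From 30 min to 3 h the meal difference changed by -0.69 for C1qa and by -0.83 for Lyz2, in a contrast chosen after the values were seen. Each call at a single time, and the change of C1qa, was lost when certain single arrays were left out. Lyz1 could share signal with Lyz2, which was not tested. Each pool is 1 pool of RNA, so that a difference between mice in these genes and a difference between pools for other reasons cannot be told apart.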

How the results depend on the processing

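No value that was called changed direction in any alternative. Of 720 list medians recomputed, 37 had the other sign, in 11 of the pairings of list and comparison; the reported medians of these were 0.2 or less in size, and the B-lineage median at HF30min against Fasting went from -0.2 to 0.093 with probe sets under 6 left out. Of 1285 values recomputed, 1043 kept their side of the threshold or stayed within the spread between arrays (for counts, within 1.5 times). The values below are counts of immune markers called, with the reported count in the report, and list medians in log2 units; where no cause is named, the cause was not tested. Centring each array on its median left 0 called at HF3h against Fasting and 0 between the meals at 30 min, and gave medians of 0.16 for T cell genes at 1 h and of 0.064 (T cell), -0.21 (B lineage) and -0.14 (class II) at 3 h between the meals. Quantile normalization called 9 over the 7 groups and gave 3 h medians of 0.16 for T cell and -0.19 for myeloid genes. Leaving out probe sets with a mean under 6 meant fewer tests and left 25 immune markers. Against Fasting this filter called 1 at LF30min, 2 at LF1h and 3 at LF3h, with 2.26%, 7.62% and 26% of the genes left. It called 3 at HF30min, 1 at HF1h and 3 at HF3h, with 9.54%, 7.58% and 29%. Between the meals it called 2 at 30 min and 3 at 1 h, with 4.27% and 2.78%. Over the 7 groups it called 15, where 43.5% of the genes left were called. The T cell median at 3 h was 0.15 with this filter, as it also was over immune markers with a mean of at least 6. An intensity trend in the variance called 1, 3 and 4 at LF30min, LF1h and LF3h against Fasting, with 1.08%, 3.38% and 10.1% of all genes. It called 6 at HF30min and 3 at HF3h, with 4.24% and 11.8%. Between the meals it called 4, 3 and 6 at 30 min, 1 h and 3 h, with 2.37%, 1.32% and 5.41%. Over the 7 groups it called 16, with 21.1%. Among the alternatives, shares of all genes were computed for the filter and this trend only. The replicate block left 0 at HF3h against Fasting and 0 between the meals at 30 min and changed no other count by over 1.5 times; the numbers do not pair the arrays. Fitting the compared groups alone left 0 in each comparison, with fewer arrays to estimate the spread. The mean of all probe sets of a gene called 1 at LF1h, 5 at LF3h, 1 at HF30min and 2 at HF3h against Fasting, 2 and 1 between the meals at 30 min and 1 h, and 10 over the 7 groups. With every _a_at, _s_at and _x_at probe set left out, 2 were called at LF3h and 0 between the meals at 30 min, and the class II median at 3 h was -0.29, over fewer genes. An adjusted p under 0.01 left 0 in each comparison and 3 over the 7 groups, a minimum of 1.5-fold left 1 at 3 h between the meals and 0 elsewhere, and a minimum of 2-fold left 0. The robust variance changed no count by over 1.5 times.

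Leaving out 1 array at a time gave 0 to 1 called at LF3h, at HF30min and at HF3h against Fasting, 0 at LF30min, LF1h and HF1h, 0 between the meals at 30 min and 1 h, and 0 to 3 at 3 h, where 0 was left without the first LF3h array or either HF3h array. Over the 7 groups 4 to 7 were called, and 3 without the HF30min pool, an alternative added after seeing the data. List medians ran from 0.16 to 0.21 for T cell genes at 1 h, and at 3 h from 0.084 to 0.12 for T cell, -0.21 to -0.18 for B-lineage, -0.12 to -0.074 for class II and -0.30 to -0.19 for myeloid genes. Signal near background limits Ms4a1, Ciita and the other 7 dim genes.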

Other observations

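Immunoglobulin genes, picked by symbol after the values were seen, went further than the B-lineage markers. Of 18 such genes with a probe set that names 1 gene, the constant regions did not pass over the 7 groups: Igha, the heavy chain of IgA, had a mean of 13.81 and an adjusted p of 0.13, Ighm 0.10 and Ighg3 0.93. Of the 15 variable genes 8 did, against 9.76% of all genes. Igkv6-20 was 1.84 higher at LF3h than in Fasting, 1.54 higher at HF1h, and 1.41 lower at HF3h than at LF3h (adjusted p = 6e-05 over the 7 groups). Igkv4-72 was 0.85 higher at LF3h than in Fasting and 1.14 lower at HF3h than at LF3h. Igkv14-111 was lower than in Fasting in all 6 fed pools, by 0.55 to 1.02, and Igkv6-14 was 1.01 lower at LF1h. Igkv15-103 was 0.75 higher at LF3h and 0.60 higher at HF3h than in Fasting, and Iglv1 was 0.55 lower at HF3h. Variable genes are closely similar, so that probe sets may share signal. Which antibody clones a pool of 20 mice held was not tested.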
